A study of Mus musculus with 24 samples.

Results

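The wild-type cerebral cortex was compared with 3 other dissected regions of the mouse brain: the cerebellum, the hippocampus and the olfactory bulb. The members are the 12 wild-type libraries of a series of 24: 3 from cortex and 3 from each other region. The other 12 libraries come from mice without the Cdr1as locus and were not used here. All 4 groups were wild-type C57BL/6 mice, and no treatment is named. The labels give no age or sex, and do not say whether the 3 libraries of a region came from separate animals, so p-values measure only the spread between these libraries. RNA was poly(A)-selected, and the deposited values were counts of reads per gene. A level is given below in CPM, read counts scaled to a common library total, and each comparison is on the log2 scale, where 1 is a 2-fold difference. The 3 other regions had equal weight in their mean.

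The cortex is a layered sheet in which excitatory projection neurons of each layer share a transcriptional identity and a set of targets. Neurons of the upper layers connect cortical areas, those of layer 4 receive thalamic input, and those of the deep layers project below the cortex. Inhibitory interneurons born in the ganglionic eminences are scattered among them. The hippocampus derives from the same dorsal telencephalon, the olfactory bulb is a telencephalic structure rich in inhibitory granule cells, and the cerebellum derives from the hindbrain and is dominated by its granule cells.

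The markers of cortex were present in the cortex libraries, and so were markers of structures that lie under it. The summed level of the striatum markers was 1359.9, 2246 and 2216 CPM in cortex libraries 1, 2 and 3, and at most 579.6 CPM elsewhere. Library 1 held the lowest cortex value for 19 of the 19 tested markers, against 37.1% of all genes tested. On other lists it did so for 12 of 18 layer 6 and 6b genes, 5 of 6 erythrocyte genes and 1 of 20 astrocyte genes. Chat, the acetylcholine-synthesising enzyme, was at 4.82, 5.57 and 6.69 CPM in the cortex and at most 0.119 CPM in the other libraries. Markers of cholinergic neurons of the basal forebrain, a list written after values were seen, summed to 34.1, 34.9 and 39.98 CPM in the cortex and to at most 5.23 CPM elsewhere.

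Hypothalamic peptide genes were uneven among the cortex libraries. Pmch, which encodes melanin-concentrating hormone, was at 25.2, 0.683 and 30.5 CPM, and Hcrt, which encodes hypocretin and was too low to be tested, at 6.36, 0.0719 and 6.96 CPM. Libraries 1 and 3 were high and library 2 was low, and the same held for the vasopressin gene Avp (16.1, 2.12 and 9.34 CPM) and the oxytocin gene Oxt (14.2, 2.34 and 11.9 CPM). Summed over the hypothalamus list, also written after values were seen, the level was 74.3, 9.13 and 64.5 CPM in the cortex and at most 10.8 CPM elsewhere. Of its 7 tested members 4 were higher than the mean and 0 lower, and 1 was lower than in the cerebellum. A further 5 were too low to be tested. Of 12 thalamus markers 2 were higher than the mean and 1 was lower, against 21.8% and 17.6% of all genes tested. Against the hippocampus 2 were higher and 0 lower (median log2 0.76). Their sum was 272, 187 and 334 CPM in the cortex, 182 to 194 CPM in the hippocampus and at least 636 CPM in the cerebellum and bulb. The part of subcortical tissue in the genes called below was not tested, and values of striatal, cholinergic and hypothalamic genes are given beside the results that hold them. In bulk tissue, more cells of a type and more RNA per cell cannot be told apart.

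The other regions had uneven libraries too. The 11 choroid plexus markers summed to 2089.7, 2438 and 32 CPM in the cerebellum, 2571, 42.7 and 3394 CPM in the hippocampus, 423, 162 and 27.4 CPM in the cortex and at most 79.99 CPM in the bulb, and 0 of the 11 passed a test in the mean comparison. Cerebellum library 1 stood apart for Nrgn, a postsynaptic calmodulin-binding protein, at 49.1, 3.42 and 4.45 CPM in the 3 cerebellum libraries. Markers of telencephalic excitatory neurons, Nrgn among them, summed to 3750.6, 3551.8 and 3754.6 CPM there. The mean log2 of their CPM plus 1 was 5.52, 5.31 and 5.27. Library 2 stood apart in every region. Grin2a, an NMDA receptor subunit, was at 26, 4.74 and 29.5 CPM in the cortex and at 49.8, 4.05 and 30.5 CPM in the hippocampus, and it was 1 of 21 genes that were at least 4-fold lower in library 2 than in both other libraries in all 4 regions, against 0 such genes for library 1 or 3. Library depth was 21068566 to 36208610 gene counts.

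**Figure D1:**
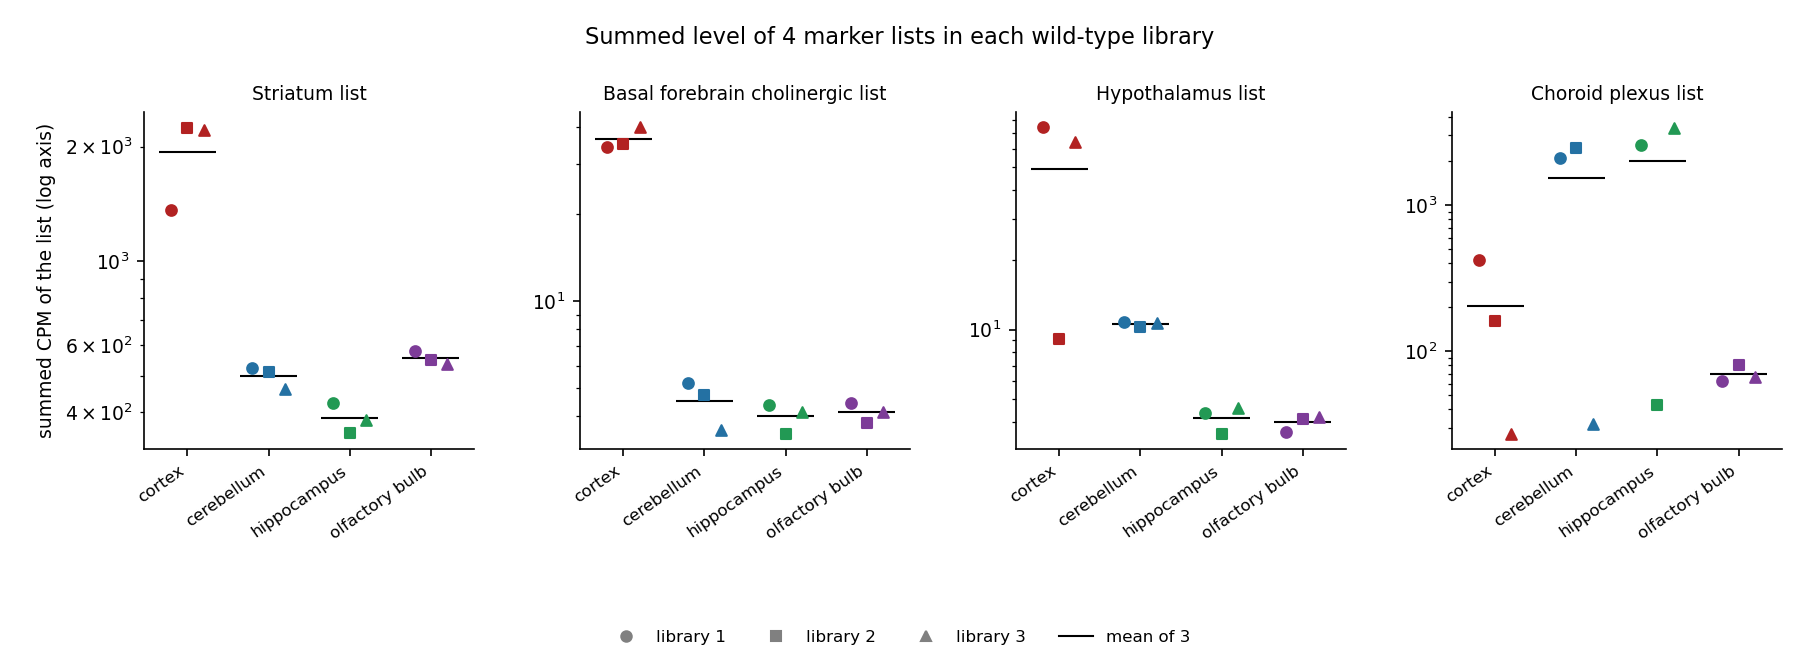
Summed CPM (log axis) of 4 marker lists in each of the 12 wild-type libraries, 3 per region, with the mean of the 3 as a bar. The cortex libraries lie above all others for the striatum and basal forebrain cholinergic lists, cortex library 2 is low for the hypothalamus list, and 4 libraries of cerebellum and hippocampus exceed 1000 CPM for the choroid plexus list.

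How far did the cortex stand from the mean of the other regions, and from each? Of 16729 genes tested, 3646 were higher in the cortex than the mean (21.8%) and 2936 were lower (17.6%) in the edgeR quasi-likelihood test at an adjusted p under 0.05. Scaled by library totals in place of TMM, the balance turned, with 2895 higher and 3761 lower. At least 2-fold differences numbered 1238 higher (7.4%) and 627 lower (3.75%). The median log2 over all genes was -0.0047. The cortex was closest to the hippocampus, where 1339 genes were higher in the cortex (8%) and 918 lower (5.49%), with 613 (3.66%) and 351 (2.1%) at least 2-fold. With the library number as a block the 918 became 1536. Against the bulb 3793 genes were higher (22.7%) and 3612 lower (21.6%), with 1532 (9.16%) and 1418 (8.48%) at least 2-fold. Library totals gave 2751 higher and 5165 lower than the bulb, with 1264 and 1900 at least 2-fold. Against the cerebellum 4562 were higher (27.3%) and 4428 lower (26.5%), with 2454 (14.7%) and 1753 (10.5%) at least 2-fold. The root mean square log2 difference over genes was 0.68 to the hippocampus, 1.06 to the bulb and 1.43 to the cerebellum. These comparisons share the cortex libraries.

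The mean alone does not say that a gene marks the cortex. Among the 3646 higher genes, the cortex had the highest region mean for 2388, the second for 1168 and the third for 90, and the lowest region was the cerebellum for 2137. Among the 2936 lower genes the cortex was lowest for 2095, and the highest region was the cerebellum for 1856. A stricter test was therefore used, in which a gene had to differ in the same direction from each of the 3 regions and the largest of the 3 p-values was adjusted over all genes. By it 289 genes were highest in the cortex (1.73%) and 53 were lowest (0.317%; 130 with the library number as a block), of which 142 (0.849%) and 17 (0.102%) were at least 2-fold from the nearest region. In all of the 289 and 53, the 3 cortex libraries did not overlap with the 9 others. This was the case for 6.1% (above) and 2.49% (below) of all genes. The test itself selects for such separation, and the naming rule for highest and lowest genes required it, so it adds no support. The region nearest to the cortex was the hippocampus for 182 of the 289, the bulb for 71 and the cerebellum for 36. Without cortex library 3 the 289 became 166, without hippocampus library 1 187, and without the 4 libraries of cerebellum and hippocampus rich in choroid plexus RNA 77. Of 61 genes named here that passed against each region, 20 lost the call when some 1 library was left out, and 24 without those 4 libraries. Where a call was lost with 1 library, the largest adjusted p is given beside the first, with the library left out. Calls lost without those 4 libraries are not marked beside the gene. Where a log2 against the nearest region has no standard error (SE), the edgeR adjusted p beside it is that of the stricter test. That p can come from another of the 3 regions. Where an SE is printed, the log2, SE and p belong to the single comparison named.

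**Figure D2:**
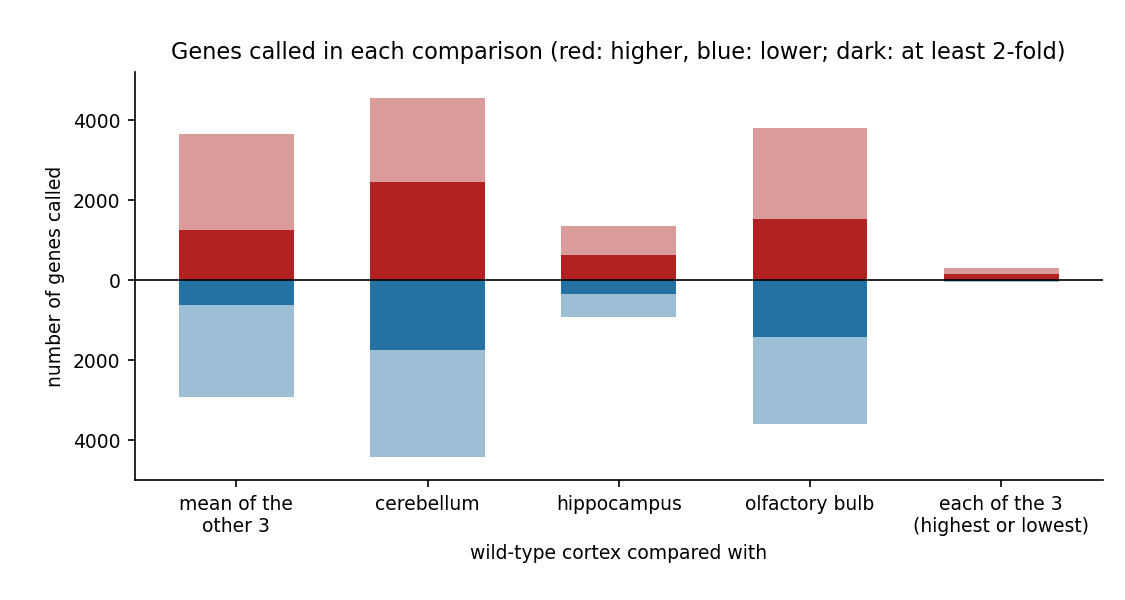
Number of genes called (edgeR adjusted p under 0.05) in each comparison of the wild-type cortex, with higher genes in red above 0 and lower genes in blue below 0; the dark part is at least 2-fold. The hippocampus gives the fewest calls of the 3 single regions (1339 higher, 918 lower), and 289 genes were highest and 53 lowest in the cortex.

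Among the 142 genes at least 2-fold higher than in each region, Tbr1, Lamp5, Otof, Rorb, Rspo1, Cplx3 and Oprk1 are on the lists of cortical layers and telencephalic excitatory neurons. Tbr1, the T-box factor of deep-layer corticothalamic neurons, was at 126, 151 and 128 CPM in the cortex. Its other levels were 48.9, 57.1 and 63.4 CPM in the hippocampus, 16.5, 18.3 and 18.1 CPM in the bulb and 0.769, 0.949 and 0.782 CPM in the cerebellum. The order of regions was the same in every library, and the groups did not overlap (log2 1.26 against the hippocampus, edgeR adjusted p = 0.00011). Lamp5, a lysosome-associated membrane protein of upper-layer neurons and neurogliaform interneurons, was at 249.7, 193 and 205 CPM, with the bulb next at 51.4, 62.3 and 54.4 CPM (log2 1.95 against the bulb, edgeR adjusted p = 5.91e-05). In the cerebellum it was at 1.43, 1.08 and 0.722 CPM, and every cortex library was above every other library.

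Rorb and Rspo1 are layer 4 genes. Rorb, a nuclear receptor of neurons that receive thalamic axons, was at 39.4, 48.8 and 46.7 CPM in the cortex, with the hippocampus next at 19.1, 20.4 and 16.6 CPM (log2 1.27 against the hippocampus, edgeR adjusted p = 0.00241). Rspo1, a secreted enhancer of Wnt signalling, was at 9.18, 7.65 and 6.96 CPM against 1.10, 0.863 and 0.817 CPM in the hippocampus (log2 3.08 against the hippocampus, edgeR adjusted p = 0.0017). The groups of libraries did not overlap for either gene. Otof, the calcium sensor otoferlin, was at 32.2, 52.1 and 33.5 CPM, with library 2 the highest, and at 5.47, 6.38 and 10.2 CPM in the hippocampus, with library 3 the highest (log2 2.42 against the hippocampus, edgeR adjusted p = 0.000904). Cplx3, a complexin that regulates vesicle fusion and marks subplate neurons, was at 19.7, 21.5 and 22.2 CPM against 4.19, 4.24 and 10.3 CPM in the hippocampus (log2 1.77 against the hippocampus, edgeR adjusted p = 0.00802). Hippocampus library 3 was again above its companions. It held the highest of the 3 hippocampus values for 81 of the 142 genes (57.0%), against 33.1% of all genes tested, and cerebellum library 1 did so in its region for 82 (57.7% against 33.2%). The part of these 2 libraries in the results was not tested.

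**Figure D3:**
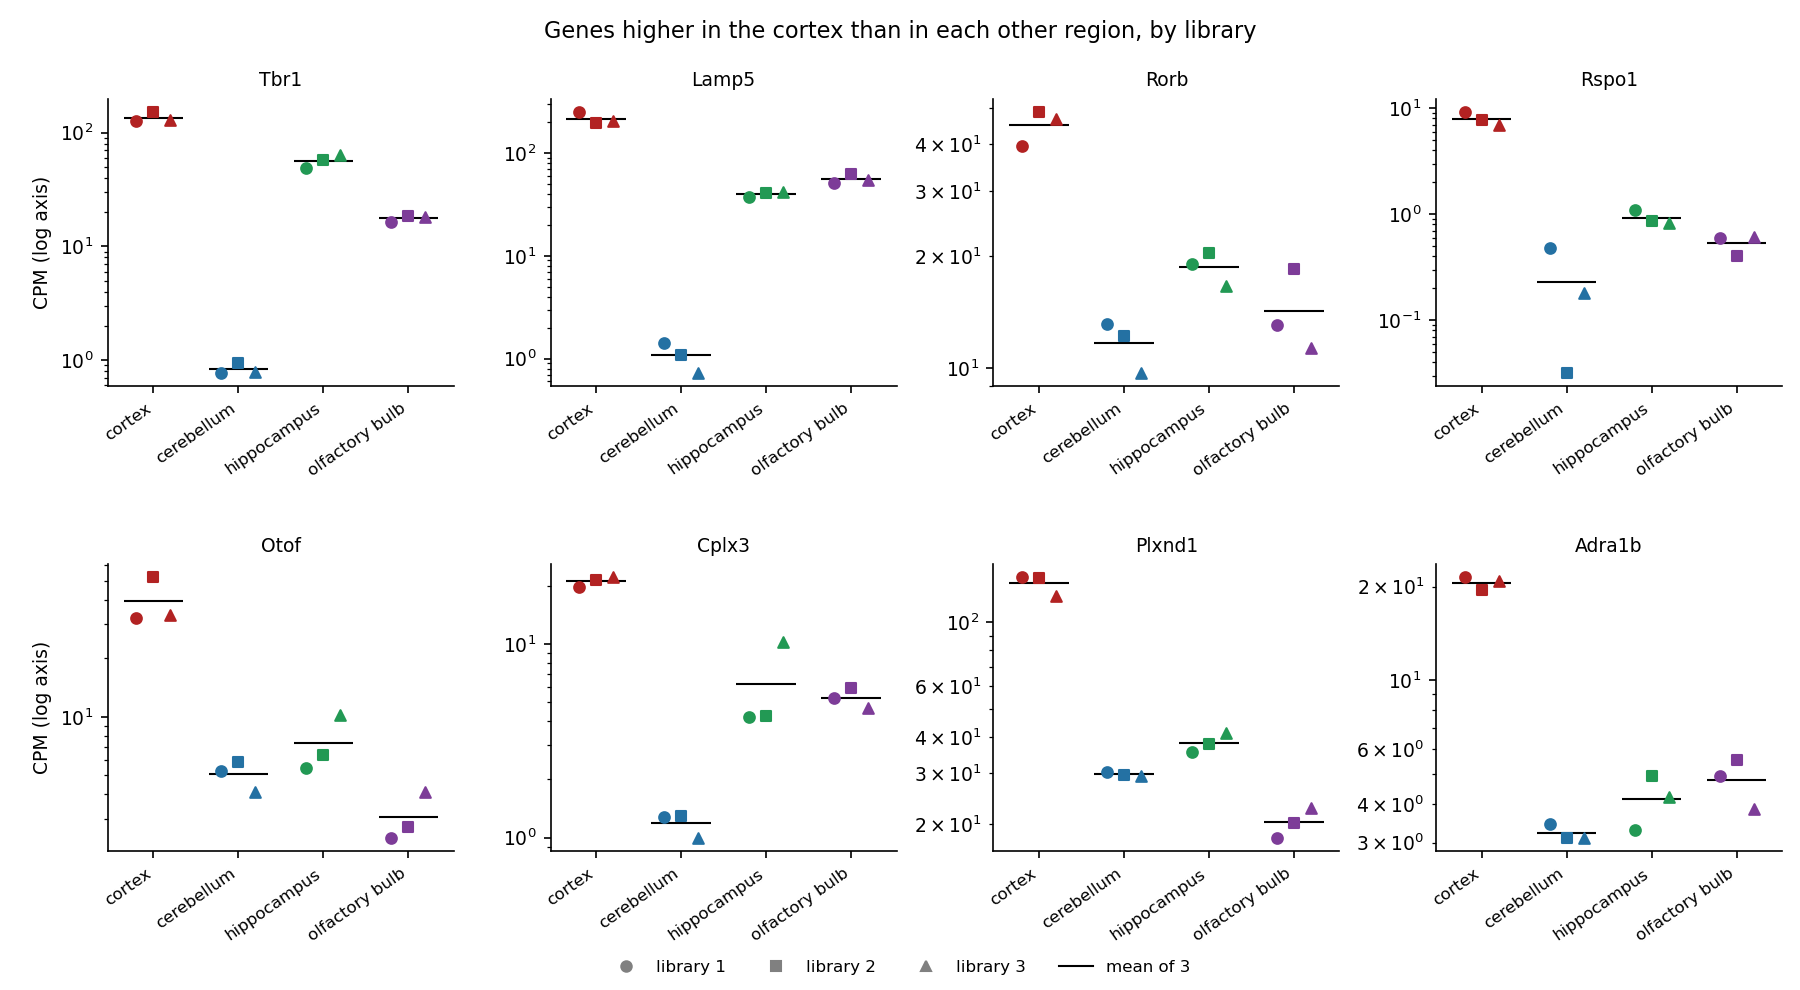
CPM (log axis) of 8 genes in each wild-type library, with the mean of the 3 libraries of a region as a bar. All 3 cortex libraries lie above the 9 others for each gene, and the nearest region is the hippocampus for Tbr1, Rorb, Rspo1, Otof, Cplx3 and Plxnd1 and the bulb for Lamp5 and Adra1b.

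RefSeq promoter windows (GRCm38.p6, 250 bases before to 50 after an annotated start, on the gene's strand) were matched for 87 of the 142 genes. They are shown for Tbr1, Lamp5 and Plxnd1, which have the 3 smallest adjusted p over the 3 regions on the layer, excitatory and guidance lists. The capitals mark CAGATG or its reverse complement, an E-box that neuronal basic helix-loop-helix factors can bind. Lamp5 has 2 windows, of which the downstream one holds the motif.
Tbr1, chr2:61804203-61804502, plus strand: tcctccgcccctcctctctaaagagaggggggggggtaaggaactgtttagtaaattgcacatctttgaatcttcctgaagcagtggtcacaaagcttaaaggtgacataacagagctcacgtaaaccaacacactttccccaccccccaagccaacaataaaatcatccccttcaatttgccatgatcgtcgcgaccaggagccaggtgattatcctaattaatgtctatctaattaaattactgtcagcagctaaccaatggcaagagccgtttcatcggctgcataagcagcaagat
Lamp5 upstream start, chr2:136052089-136052388, plus strand: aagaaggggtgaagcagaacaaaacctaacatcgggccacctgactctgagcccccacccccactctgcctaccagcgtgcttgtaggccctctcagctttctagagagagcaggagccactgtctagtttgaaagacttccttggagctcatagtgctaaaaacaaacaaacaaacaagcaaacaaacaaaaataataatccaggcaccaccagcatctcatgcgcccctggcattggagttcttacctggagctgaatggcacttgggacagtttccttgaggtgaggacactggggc
Lamp5 downstream start, chr2:136057498-136057797, plus strand: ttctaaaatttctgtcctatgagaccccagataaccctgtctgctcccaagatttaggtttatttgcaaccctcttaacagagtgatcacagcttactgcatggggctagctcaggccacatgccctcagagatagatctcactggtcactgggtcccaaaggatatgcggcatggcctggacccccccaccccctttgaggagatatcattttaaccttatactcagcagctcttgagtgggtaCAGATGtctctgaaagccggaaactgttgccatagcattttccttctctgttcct
Plxnd1, chr6:115994956-115995255, minus strand: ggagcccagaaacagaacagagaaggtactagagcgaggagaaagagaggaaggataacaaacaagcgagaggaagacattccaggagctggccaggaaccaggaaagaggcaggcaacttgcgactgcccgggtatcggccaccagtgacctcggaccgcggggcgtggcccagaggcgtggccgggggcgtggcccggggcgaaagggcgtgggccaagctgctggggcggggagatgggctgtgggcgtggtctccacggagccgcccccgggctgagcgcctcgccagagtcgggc
On either strand CAGATG was in 15 of the 118 windows of the marked genes (12.7%) and in 12.4% of the 15553 windows of the 12178 matched genes among all tested. The cyclic AMP response element TGACGTCA was in 3 windows (2.54% against 2.75%), TATAAA in 12 (10.2% against 7.66%) and the core of the Mef2 site in 1 (0.847% against 3.18%). Overlaps between motifs were not removed. These shares describe letters in a window and not binding.

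The layer lists differed in how far they set the cortex apart. Of 13 layer 2/3 genes 10 were higher and 0 lower than the mean (median log2 1.01), against 21.8% and 17.6% of all genes. Layer 4 gave 7 and 2 of 10 (median 1.43), and layers 6 and 6b 13 and 2 of 18 (median 0.63). Layer 5 gave 9 and 4 of 18, with a median of 0.51 against the mean and -0.42 against the hippocampus, where 4 were higher and 7 lower. No layer 5 gene was highest in the cortex by the stricter test, while 2, 3 and 3 genes of the other layers were. The share over all genes was 1.73%, and a count of 0 among 18 genes is near it.

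Several layer 5 genes were higher in the hippocampus. Fezf2, the factor that specifies corticospinal neurons, was at 24.1, 26.6 and 23.3 CPM in the cortex and 42.1, 52.4 and 44.2 CPM in the hippocampus (log2 -0.91, SE 0.11, edgeR adjusted p = 0.000166). Crym, a thyroid hormone-binding protein, was at 80.3, 78.3 and 98.3 CPM and 221, 282 and 223 CPM (log2 -1.50, SE 0.30, edgeR adjusted p = 0.00627). Bcl11b, the partner of Fezf2 in corticospinal neurons, was at 86.2, 129.8 and 114 CPM and 189, 195 and 142 CPM (log2 -0.67, SE 0.39, edgeR adjusted p = 0.321). For all 3 genes every hippocampus library exceeded every cortex library, although the difference of Bcl11b was not called. Stac, a channel adaptor on the same list, was lower in the cortex than in all other regions, at 1.90, 1.90 and 2.12 CPM against 4.88, 5.67 and 3.04 CPM in the hippocampus (log2 -1.20 against the hippocampus, edgeR adjusted p = 0.0103, or 0.0508 without hippocampus library 1).

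Genes shared by excitatory neurons of the telencephalon were higher than the mean for 17 of 20 and lower for 0 (median 1.82). Against the hippocampus the median was -0.01 with 8 higher and 5 lower. Slc17a7, the vesicular glutamate transporter of cortical neurons, was at 1424, 1292 and 1194 CPM in the cortex and 1559.7, 1591 and 1264 CPM in the hippocampus, and the groups overlapped. Neurod6, a helix-loop-helix factor of pyramidal neurons, was lower in the cortex than in the hippocampus, at 69.4, 62.5 and 67 CPM against 235, 222 and 199 CPM. Slc30a3, the zinc transporter of synaptic vesicles, went the other way, at 140.5, 122 and 113 CPM against 72.8, 77.7 and 66.6 CPM (log2 0.79 against the hippocampus, edgeR adjusted p = 0.00297). Mef2c, a factor that controls synapse number, was at 715, 727 and 722 CPM in the cortex, and the bulb came next at 447, 311 and 371 CPM (log2 0.94 against the bulb, edgeR adjusted p = 0.0263, or 0.104 without bulb library 3). Emx1, which marks the dorsal telencephalon, was at 16.6, 13.2 and 14.6 CPM against 10.6, 9.72 and 8.39 CPM in the hippocampus and was not called by the stricter test (adjusted p = 0.497).

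**Figure D4:**
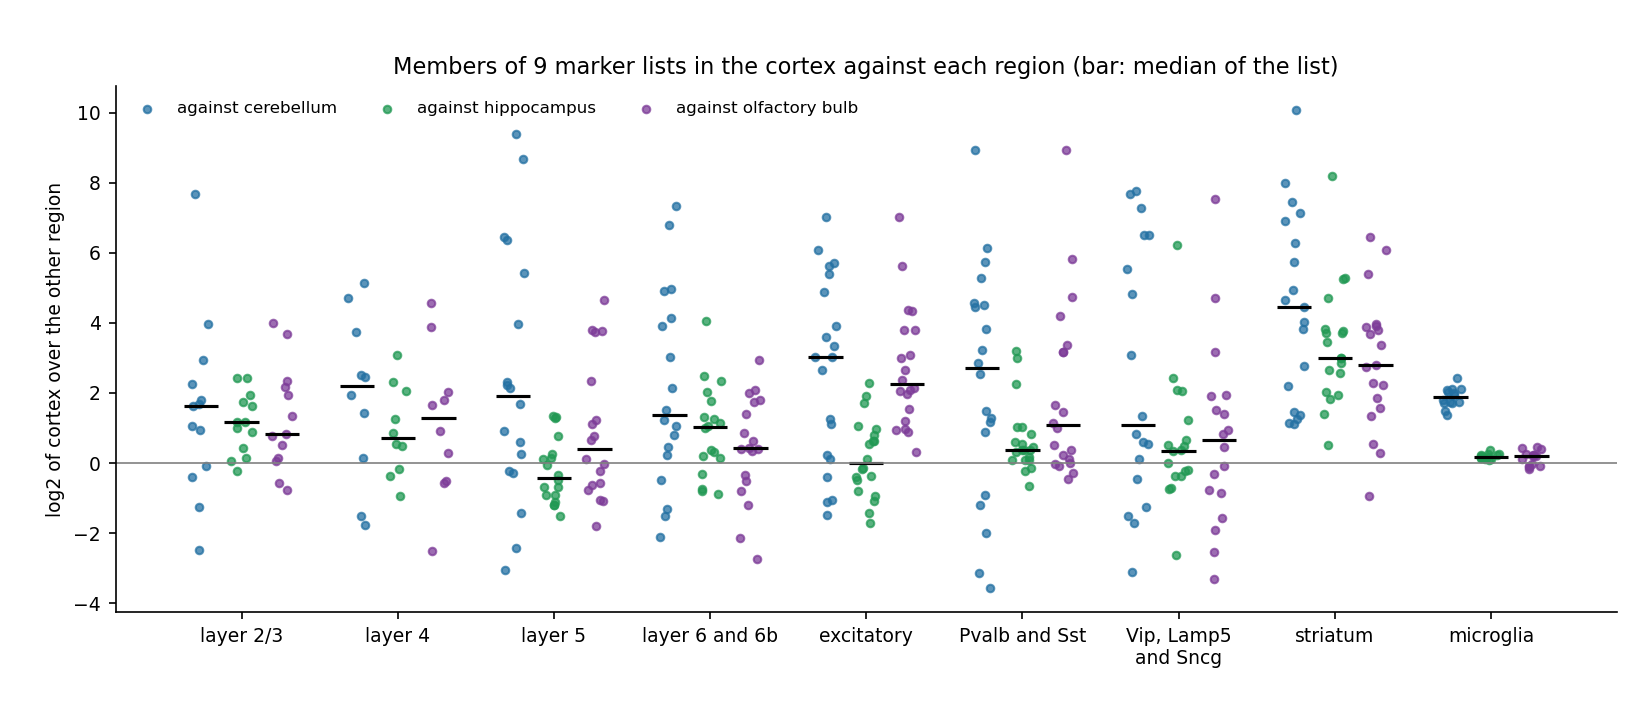
Log2 of cortex over each other region for the tested members of 9 marker lists, 1 point per gene, with the list's median as a bar. The layer 5 and excitatory lists have medians of -0.42 and -0.01 against the hippocampus, while the striatum list has medians of 4.46, 3 and 2.80 against the cerebellum, hippocampus and bulb.

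In the list for Pvalb and Sst cells 15 of 20 were higher and 2 lower (median 1.18), with medians of 2.70 against the cerebellum, 1.07 against the bulb and 0.38 against the hippocampus. Sst, the somatostatin gene, was at 167, 142 and 171 CPM in the cortex and 151, 154 and 143 CPM in the hippocampus, with overlap. Lhx6, which specifies these cells, was at 25.8, 21.1 and 23.4 CPM and 17.7, 17.6 and 18.5 CPM and at most 0.637 CPM elsewhere. Pvalb itself was not called (log2 0.06 against the mean, SE 0.13, edgeR adjusted p = 0.741), and the cerebellum held 392, 481 and 542 CPM. Chodl, a marker of Sst cells with long axons, passed against each region at 2.41, 1.80 and 2.51 CPM in the cortex and at most 0.413 CPM elsewhere. Nkx2-1, described below, is the other member that passed.

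For Vip, Lamp5 and Sncg cells, 11 of 18 genes were higher and 4 lower (median 0.76). Vip, the vasoactive intestinal peptide gene, was at 65.2, 42.2 and 59.9 CPM in the cortex, 28, 34.1 and 32.3 CPM in the bulb and 20.5, 23.8 and 26.8 CPM in the hippocampus, with no overlap, and did not pass against each region (adjusted p = 0.888). The members that passed were Lamp5 and the cholinergic gene Chat. The 12 genes of GABA synthesis, transport and interneuron birth gave 7 higher and 1 lower than the mean (median 0.88). Gad1, which makes GABA, was at 569.7, 502 and 551 CPM in the cortex and 2105, 2315 and 2089 CPM in the bulb, and all 12 were lower in the cortex than in the bulb. Against the hippocampus 8 of the 12 were higher and 0 lower.

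The striatum list gave the most marked genes of any list. All 19 tested members were higher than the mean (median 3.61), and 14 were highest of the 4 regions by the stricter test and are among the 142 marked genes. Six3, a factor of striatal neurons and the untested member, was at 0, 0.0359 and 0 CPM in the cortex. Drd1, the dopamine receptor of direct-pathway neurons, was at 33.3, 65.4 and 63.4 CPM in the cortex and at most 5.85 CPM in any other library (log2 3.47 against the hippocampus, edgeR adjusted p = 0.000264). Drd2, the receptor of indirect-pathway neurons, was at 24.3, 44.7 and 42.4 CPM, with cerebellum library 1 the highest of the others at 5.78 CPM (log2 3.72 against the hippocampus, edgeR adjusted p = 0.0309, or 0.165 without hippocampus library 1). Adora2a, the adenosine receptor of the same neurons, was at 30.8, 61.3 and 64.9 CPM against 6.58, 8.38 and 7.62 CPM in the bulb (log2 2.80 against the bulb, edgeR adjusted p = 8.17e-05). In each of the 3 genes cortex library 1 lay well below libraries 2 and 3. Sh3rf2 (6.41, 13.6 and 12.3 CPM), Gpr6 (9.08, 13 and 15.1 CPM) and Ido1 (1.80, 2.59 and 4.24 CPM) also had their lowest cortex value in library 1, and the call of Gpr6 against each region ended without cortex library 3 (edgeR adjusted p = 0.0977). Isl1, a factor of striatal and cholinergic neurons, was at 4, 4.53 and 5.94 CPM and 0 in 7 of the 9 other libraries, so no fold is given.

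Cholinergic genes differed little among the cortex libraries. Slc5a7, the choline transporter, was at 11.8, 13 and 14.5 CPM in the cortex and at most 1.45 CPM elsewhere. Gbx1, a homeobox factor, was at 2.05, 2.12 and 2.72 CPM. Nkx2-1, which patterns the ventral telencephalon, was at 2.41, 2.01 and 2.21 CPM in the cortex, 0.714, 0.263 and 0.363 CPM in the hippocampus and 0 in all cerebellum and bulb libraries; its edgeR adjusted p over the 3 regions was 0.033, or 0.146 without cortex library 3. Irs4, an insulin receptor substrate, and Calcr, the calcitonin receptor, were highest in library 1 and lowest in library 2 of the cortex, at 17.3, 5.35 and 8.78 CPM and 4.46, 1.08 and 2.45 CPM. Library 2 is the cortex library with the lowest hypothalamic sum. It also held the lowest cortex value for 14 of 20 astrocyte genes, 11 of 14 microglia genes and 1 of 18 layer 6 and 6b genes. Over all genes tested it did so for 6342 of 16729. The source of the Irs4 and Calcr transcripts was not tested. The calls of Irs4 and Calcr (edgeR adjusted p = 0.0183 and 0.0159) became 0.122 without hippocampus library 1 and 0.0727 without cerebellum library 3, and that of Pmch (0.0264) became 0.15 without hippocampus library 1.

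Of the 142 marked genes 103 were on no list. By the naming rule Myl4, a myosin light chain, was at 18.6, 20.8 and 22.1 CPM in the cortex and at most 2.22 CPM elsewhere (log2 3.48 against the hippocampus, edgeR adjusted p = 4.09e-06). Trbc2, a constant segment of the T-cell receptor beta chain, was at 5.23, 6.90 and 7.34 CPM and at most 0.469 CPM elsewhere, Cd4 at 5.95, 11.7 and 12.5 CPM and at most 0.939 CPM, and Cd6 at 3.69, 2.30 and 2.21 CPM and at most 0.454 CPM. Trbc2 and Cd4 were lowest in cortex library 1, as were 37.1% of all genes tested, and Cd6 was highest there. Chosen after their values were seen, 4 abundant genes also separated the cortex. Camk2n1, an inhibitor of CaM kinase II, was at 2312, 2181 and 2447 CPM against 758, 817 and 807 CPM in the hippocampus (log2 1.54 against the hippocampus, edgeR adjusted p = 4.44e-05). Rgs4, a brake on G-protein signalling, was at 759, 653 and 788 CPM against 239.8, 229 and 235 CPM (log2 1.64 against the hippocampus, edgeR adjusted p = 0.000299). Arpp19, a phosphatase inhibitor, was at 418, 457 and 513 CPM against 118, 116 and 126 CPM (log2 1.95 against the hippocampus, edgeR adjusted p = 2.78e-06). Stx1a, a syntaxin of the vesicle fusion machinery, was at 306, 258 and 266 CPM against 91.9, 94.1 and 94.7 CPM (log2 1.56 against the hippocampus, edgeR adjusted p = 8.17e-05). Cortex library 1 was not the lowest for Rgs4, Camk2n1 or Stx1a, and it was the lowest for Arpp19.

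Receptors for neuromodulators were mostly higher in the cortex than the mean. Of 12 serotonin receptor genes 11 were higher than the mean and 0 lower (median 1.80), of 23 receptors for acetylcholine, dopamine and noradrenaline 15 and 1 (median 1.63), and of 25 opioid and peptide receptors 18 and 2 (median 1.73). Against the hippocampus alone the medians were 0.35, 0.71 and 0.32. Adra1b, an alpha-1 adrenergic receptor, was at 21.4, 19.4 and 20.9 CPM in the cortex and 4.92, 5.53 and 3.85 CPM in the bulb, its nearest region (log2 2.11 against the bulb, edgeR adjusted p = 5.91e-05). Htr2a, the excitatory serotonin receptor of layer 5 neurons, was at 28.6, 24.4 and 28.7 CPM, above all other libraries, and did not pass against each region; the bulb, with library 2 low, was at 17.1, 3.59 and 14.3 CPM (adjusted p = 0.59). Htr1a, the inhibitory serotonin receptor, was at 23.7, 22.1 and 22.9 CPM in the cortex and 48.8, 46.7 and 46.5 CPM in the hippocampus, where every library was higher, without a call (log2 -1.05, SE 0.52, edgeR adjusted p = 0.253). The spread behind that SE and p is shared by all 4 regions, and is not that of the cortex and hippocampus alone. Chrm1, the main muscarinic receptor of forebrain neurons, was at 246, 220.4 and 187 CPM and 313, 289 and 242 CPM, which overlapped. Oprk1, the kappa opioid receptor, passed against each region at 11.7, 19.3 and 19.6 CPM, with cortex library 1 the lowest (log2 2.08 against the bulb, edgeR adjusted p = 0.00966, or 0.0522 without bulb library 3). Drd1 and Drd2, on the striatum list, are 2 of the 5 acetylcholine and monoamine receptors that passed against each region, beside Adra1b, Adrb1 and Chrnb3. The edgeR adjusted p of the last 2, 0.00974 and 0.0385, became 0.0677 without hippocampus library 1 and 0.145 without bulb library 3.

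Among 23 neuropeptide genes 19 were higher than the mean and 2 lower (median 1.93). Medians were 3.56 against the cerebellum (19 higher, 2 lower), 0.62 against the hippocampus (11 and 1) and 0.42 against the bulb (9 and 4). Pdyn, which encodes dynorphin and is also on the striatum list, was the member that passed against each region, at 55.6, 59.6 and 58.8 CPM against 16.2, 14.4 and 12.1 CPM in the hippocampus (log2 2.03 against the hippocampus, edgeR adjusted p = 0.0152, or 0.09 without hippocampus library 3). Its 3 cortex libraries were nearly equal, although library 1 was also its lowest. Tac1, the substance P precursor, was at 42.6, 59.9 and 73.8 CPM against 6.45, 7.73 and 8.03 CPM in the hippocampus and did not pass against each region (adjusted p = 0.12); it is on the striatum list and was lowest in cortex library 1. Npy was at 66.8, 50.7 and 64 CPM in the cortex and 55.7, 71.2 and 65.8 CPM in the bulb, which overlapped. Cck, the cholecystokinin gene, was at 207, 132 and 177 CPM and 174, 169 and 169 CPM in the hippocampus, also with overlap.

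Receptors for the fast transmitters were divided by subunit. Of 15 GABA-A subunits 11 were higher than the mean and 1 lower (median 0.66). Gabra4, an extrasynaptic subunit, passed against each region, at 158, 172 and 205 CPM against 130.4, 132 and 129 CPM in the hippocampus (log2 0.45 against the hippocampus, edgeR adjusted p = 0.0366, or 0.177 without hippocampus library 1). Gabra3 was at 216, 181 and 214 CPM, above 168, 151 and 149.6 CPM in the bulb, and did not (adjusted p = 0.744). Gabra6, the subunit of cerebellar granule cells, was at 746, 775 and 859 CPM in the cerebellum and at most 0.179 CPM in the cortex. Glutamate receptors split evenly, with 9 of 25 higher and 9 lower (median 0.19). By the stricter test 0 were highest in the cortex, against 1.73% of all genes. Gria1, an AMPA receptor subunit, was at 491, 518 and 432 CPM in the cortex, below every other library, the nearest being the cerebellum at 641, 572 and 558 CPM. It was lower than the mean (log2 -0.77 against the mean, SE 0.10, edgeR adjusted p = 9.26e-05) and did not pass against each region (adjusted p = 0.449). Gria3 was at 263, 326 and 300.4 CPM, above every other library, and was higher than the mean (log2 0.81 against the mean, SE 0.09, edgeR adjusted p = 3.24e-05). Grm3, a metabotropic receptor, was also above every other library, at 77.9, 50.3 and 75.1 CPM against 49.97, 32.3 and 38.5 CPM in the hippocampus (log2 1.53 against the mean, SE 0.15, edgeR adjusted p = 8.86e-06).

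Among 33 voltage-gated potassium channel genes 19 were higher than the mean and 6 lower (median 1.11), and 3 passed against each region. Medians were 2.02 against the cerebellum (21 higher, 6 lower), 0.27 against the hippocampus (10 and 2) and 0.62 against the bulb (14 and 8). Kcnv1, a silent subunit that modifies other potassium channels, was at 139, 122 and 154 CPM in the cortex against 46.5, 37.4 and 47.8 CPM in the hippocampus (log2 1.65 against the hippocampus, edgeR adjusted p = 0.00946, or 0.0612 without cortex library 3). Kcns1, another modifier subunit, was at 19.2, 15.8 and 15 CPM against 8.15, 9.04 and 8.89 CPM (log2 0.94 against the hippocampus, edgeR adjusted p = 0.00227). Kcnf1 was higher than the mean at 265, 206 and 206 CPM but below the bulb at 397, 397 and 361 CPM. Kcna2, a channel of axons, was not called (log2 0.29 against the mean, SE 1.13, edgeR adjusted p = 0.863), and library 2 was far below its companions in the cerebellum, hippocampus and bulb (133, 7.59 and 136, 52.5, 1.16 and 62, and 61, 0.67 and 54.2 CPM). Of 26 sodium, calcium and HCN channel genes 13 were higher and 4 lower (median 0.37). Cacng3, a subunit that escorts AMPA receptors, was at 130.0, 106 and 95.4 CPM against 42.8, 48.4 and 47.3 CPM in the hippocampus (log2 1.26 against the hippocampus, edgeR adjusted p = 0.000393). Scn4b, a sodium channel subunit, was at 186, 388 and 409 CPM against 147, 143 and 134 CPM in the cerebellum (log2 1.21 against the cerebellum, edgeR adjusted p = 0.02, or 0.0994 without cortex library 3), with cortex library 1 the lowest.

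Activity-dependent genes were higher than the mean for 14 of 32 and lower for 2 (median 0.59). Against the cerebellum 22 were higher and 3 lower (median 1.71), against the bulb 9 and 5 (median 0.0019), and against the hippocampus 4 and 4 (median 0.19). Egr1 was at 219.8, 225 and 227 CPM in the cortex, above every other library (log2 1.30 against the mean, SE 0.25, edgeR adjusted p = 0.00175). Egr3, of the same family, was at 132, 88.5 and 81.1 CPM against 56.7, 47.2 and 47.8 CPM in the hippocampus, with no overlap (log2 3.36 against the mean, SE 0.27, edgeR adjusted p = 4.54e-06). Fos was at 22.4, 22.1 and 35.4 CPM in the cortex and 17, 46 and 64.2 CPM in the bulb and was not called (log2 0.38 against the mean, SE 0.41, edgeR adjusted p = 0.493). Arc, which regulates AMPA receptor removal, spread over 82.8, 122 and 259 CPM among the cortex libraries alone and was not called (edgeR adjusted p = 0.0517). Dusp5, a nuclear phosphatase that inactivates ERK, was lowest in the cortex, at 11, 7.22 and 14.2 CPM against 23.8, 21.4 and 25.8 CPM in the hippocampus and 109, 103 and 130.1 CPM in the cerebellum (log2 -1.12 against the hippocampus, edgeR adjusted p = 0.0176, or 0.0712 without hippocampus library 3).

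Of 38 ephrin, semaphorin and slit pathway genes of axon guidance, 21 were higher than the mean and 3 lower (median 0.51). Against the hippocampus 11 were higher and 9 lower (median -0.18), and against the cerebellum 25 and 7 (median 1.36). Plxnd1, a semaphorin receptor, was at 143, 142 and 124 CPM in the cortex and 35.5, 38 and 41.5 CPM in the hippocampus, and the 3 cortex libraries were close to each other (log2 1.83 against the hippocampus, edgeR adjusted p = 4.09e-06). Ephb6, an ephrin receptor without kinase activity, was at 110.4, 154 and 124 CPM against 81.1, 97 and 86.3 CPM and did not pass against each region (adjusted p = 0.0766). Slit1, a repellent ligand, was at 81.8, 86.5 and 65.5 CPM and 342, 277 and 291 CPM, so the hippocampus was the higher. Of 29 cadherins 17 were higher than the mean and 2 lower (median 0.56), but 9 and 6 against the hippocampus (median 0.32) and 10 and 8 against the bulb (median 0.10). Cdh13, a cadherin anchored by a lipid, passed against each region at 119.9, 111 and 103 CPM against 55.9, 67.4 and 55.1 CPM (log2 0.91 against the hippocampus, edgeR adjusted p = 0.0153, or 0.0858 without hippocampus library 1). The 17 genes of perineuronal nets and matrix gave 4 higher and 4 lower (median -0.15). Ncan, a brain proteoglycan, was at 327, 262 and 232 CPM and overlapped with the hippocampus and bulb. The 25 genes of the postsynaptic density gave 15 higher and 1 lower, with 0 highest in the cortex (1.73% of all genes). Their median was 0.60 against the mean and -0.19 against the hippocampus.

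Of 33 regional patterning factors 13 were higher and 11 lower than the mean (median -0.73). Emx2 and Lhx2, which pattern the dorsal telencephalon, were at 10.7, 7.76 and 7.14 CPM and 59.2, 43.6 and 48.5 CPM in the cortex and at 16.8, 17.7 and 14.4 CPM and 62.7, 57.6 and 60.02 CPM in the hippocampus. Pax6 was at 11.1, 10.8 and 9.08 CPM in the cortex and 109, 139 and 131 CPM in the cerebellum, and lower than the mean (log2 -2.09 against the mean, SE 0.11, edgeR adjusted p = 5.49e-08). Tbr1 passed against each region. Of 19 Neurod and other helix-loop-helix factors 8 were higher and 3 lower than the mean, with 0 highest in the cortex (1.73% of all genes).

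The counts of glial and vascular genes stand beside the 21.8% of all genes called higher and the 17.6% called lower than the mean. All 14 microglia genes were higher than the mean (median 0.71), 14 of 14 were higher than in the cerebellum and 0 were called against the hippocampus, where the median was 0.18. P2ry12, a purine receptor of resting microglia, was at 45.3, 32.6 and 41 CPM in the cortex, 36.3, 33.2 and 37.2 CPM in the hippocampus, 30.6, 31.3 and 25.3 CPM in the bulb and 11.3, 7.81 and 8.61 CPM in the cerebellum. The cerebellum was lowest, and the hippocampus overlapped with the cortex. Of 18 oligodendrocyte genes 7 were higher and 0 lower, and here the bulb was the low region: Mog, a myelin protein, was at 68.5, 65.2 and 82.6 CPM in the cortex and 23.1, 30.7 and 27.5 CPM in the bulb. Astrocyte genes gave 3 higher and 6 lower of 20 (median -0.10). Slc1a2, the glutamate transporter of astrocytes, was at 3897, 2945 and 3133 CPM in the cortex, 3995, 2744 and 3184 CPM in the hippocampus and 1127, 794 and 817 CPM in the cerebellum, while Slc1a3, the other one, was at 945, 646 and 696 CPM in the cortex and 1595, 1589.8 and 1524 CPM in the cerebellum. Oligodendrocyte precursor genes gave 5 higher and 0 lower of 10, ependymal genes 3 and 0 of 8, endothelial and pericyte genes 0 and 1 of 16, meningeal fibroblast genes 0 and 1 of 12, and erythrocyte genes 0 and 1 of 6.

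Which genes were lowest in the cortex? Homer3, a postsynaptic scaffold of metabotropic glutamate receptors, was at 8.31, 6.79 and 7.76 CPM in the cortex, 21, 22.3 and 20.01 CPM in the bulb, 71.5, 70.7 and 60.3 CPM in the hippocampus and 298, 358 and 361 CPM in the cerebellum (log2 -1.47 against the bulb, edgeR adjusted p = 5.91e-05). Every library kept that order of regions. Strc, the hair-cell protein stereocilin, was at 0.564, 0.575 and 0.448 CPM in the cortex and 2.14, 2.78 and 2.36 CPM in the hippocampus (log2 -2.20 against the hippocampus, edgeR adjusted p = 0.000285). Akain1, an inhibitor of protein kinase A anchoring, was at 5.23, 5.71 and 6.06 CPM against 13.2, 18.8 and 17.5 CPM (log2 -1.54 against the hippocampus, edgeR adjusted p = 8.14e-05). Trp73, the p53 relative found in Cajal-Retzius cells and ependyma, was at 1.54, 1.26 and 1.28 CPM against 3.95, 5.40 and 5.24 CPM in the bulb (log2 -1.84 against the bulb, edgeR adjusted p = 0.000334). The groups were apart in each of these genes.

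Signalling receptors were among the rest. Npr1, the receptor of atrial natriuretic peptide, was at 4.77, 4.13 and 3.40 CPM in the cortex, 9.01, 7.96 and 8.21 CPM in the hippocampus and 58.2, 58.4 and 53.3 CPM in the bulb (log2 -1.04 against the hippocampus, edgeR adjusted p = 0.00188). Fgfr1, a fibroblast growth factor receptor, was at 87.8, 66.7 and 60.8 CPM in the cortex and at least 136 CPM in every other library (log2 -0.99 against the bulb, edgeR adjusted p = 0.00252). Ror1, a Wnt receptor, was at 2.67, 2.37 and 1.82 CPM against 5.60, 5.23 and 4.63 CPM in the bulb (log2 -1.18 against the bulb, edgeR adjusted p = 0.00226), and Shisa6, an auxiliary AMPA receptor subunit, at 34.3, 29.8 and 29.3 CPM against 69.7, 49.8 and 61.9 CPM (log2 -0.96 against the bulb, edgeR adjusted p = 0.0067). The remaining genes of the naming rule, Tspan18, Itga7, St5, Maml2 and Lhfpl2, were -1.56, -1.27, -1.11, -1.08 and -1.07 on the log2 scale from their nearest region. The calls of Tspan18 and Itga7 (edgeR adjusted p = 0.0187 and 0.0129) became 0.12 without cortex library 3 and 0.0765 without cortex library 3. The set of lowest genes was small and moved with single libraries: 53 genes became 182 without cortex library 2 and 27 without cortex library 3.

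**Figure D5:**
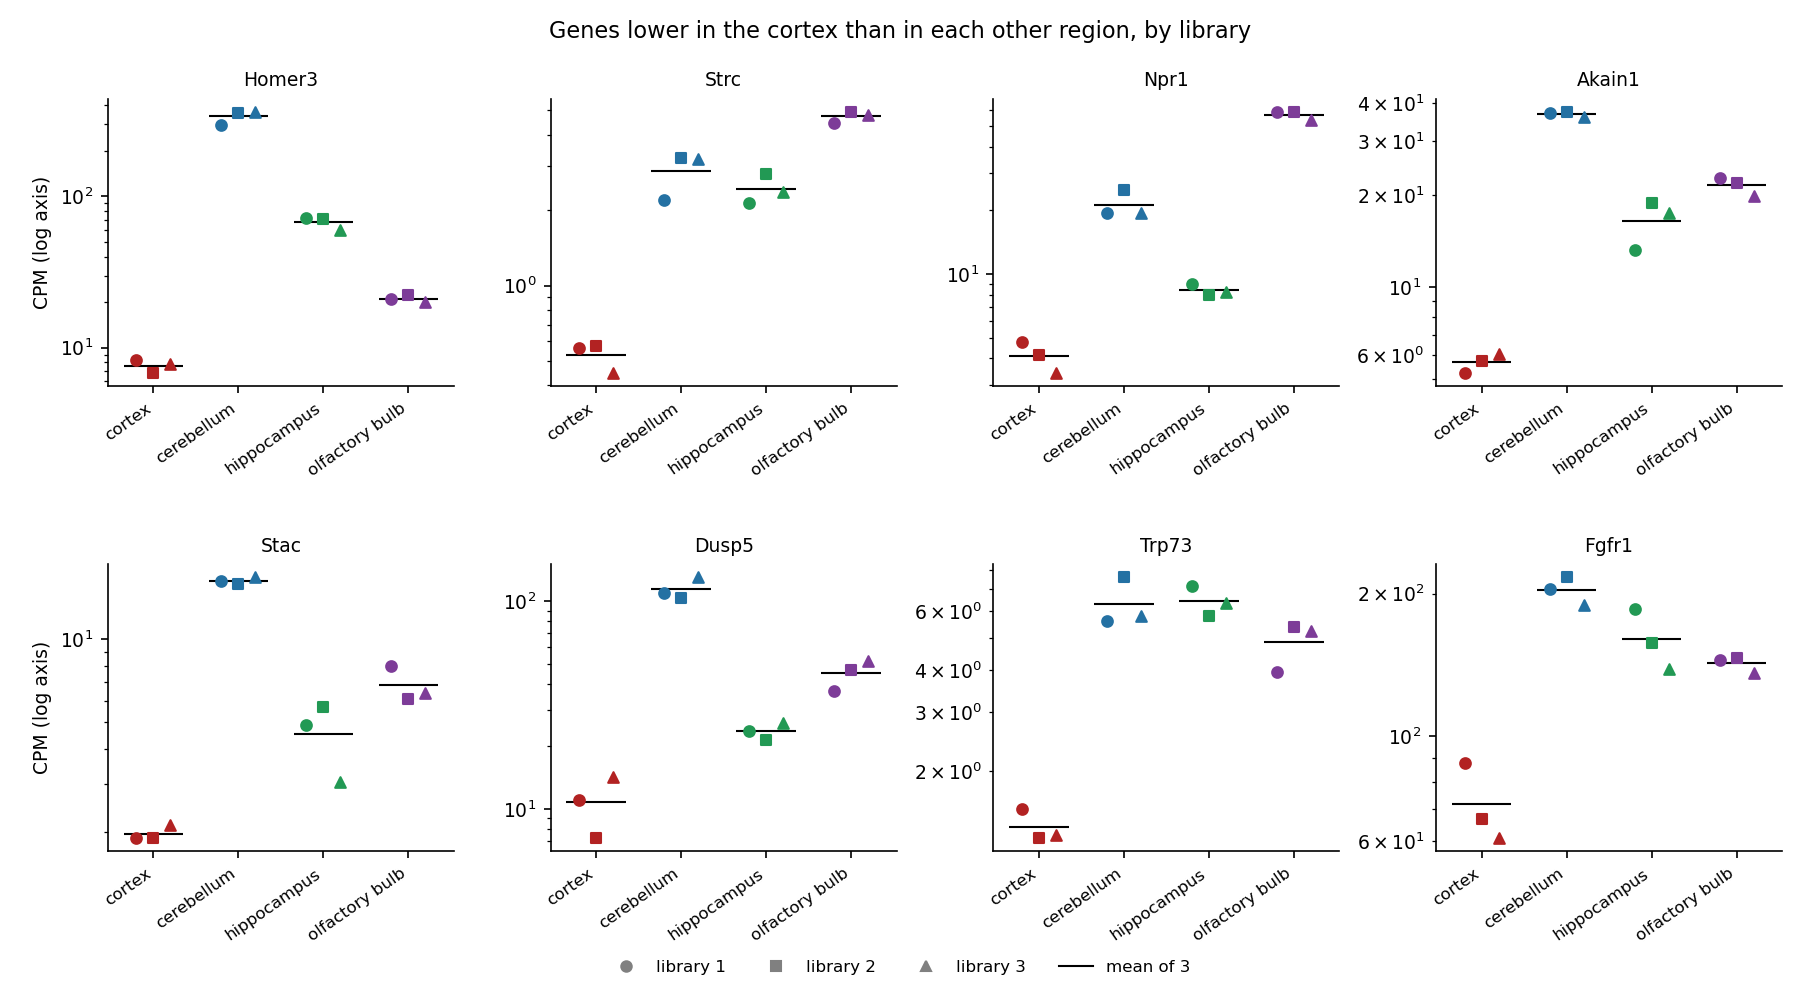
CPM (log axis) of 8 genes that were lowest in the cortex, in each wild-type library, with the mean of the 3 libraries of a region as a bar. All 3 cortex libraries lie below the 9 others for each gene, and the highest region differs between genes, the cerebellum for Homer3, Akain1, Stac, Dusp5 and Fgfr1 and the bulb for Npr1 and Strc.

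The genes furthest below the mean of the other regions were a different set. All 10 named by the rule, Cnpy1, Lbx1, Il20rb, Dao, Cpsf4l, Gabra6, Crtam, Cbln3, Pkp3 and Fat2, had their highest level in the cerebellum. Cbln3, a synapse organiser of cerebellar granule cells, was at 0.564, 0.575 and 0.567 CPM in the cortex and 1539, 1839 and 1766 CPM in the cerebellum, and the hippocampus (0.416, 0.863 and 0.953 CPM) and bulb (0.637, 0.402 and 0.433 CPM) were at cortical levels. Fat2, a granule-cell cadherin, was at 0.41, 0.611 and 0.418 CPM in the cortex and 1062, 976 and 1130.2 CPM in the cerebellum. Of the 10, Il20rb passed against each region, at 0.103, 0.575 and 0.119 CPM in the cortex and 1.32, 1.41 and 0.996 CPM in the bulb (edgeR adjusted p = 0.0285, or 0.142 without cortex library 3). The calls against the mean of Gabra6, Cpsf4l and Lbx1 had edgeR adjusted p of 0.0574 without hippocampus library 1, 0.991 without hippocampus library 3 and 1 without bulb library 3. Of the 25 cerebellum markers 18 were lower than the mean and 1 was higher, and all 25 were lower than in the cerebellum. The 20 hippocampus markers gave 7 higher and 4 lower than the mean, with 13 lower than in the hippocampus, and the 22 bulb markers gave 8 and 6, with 21 lower than in the bulb. The 10 markers of claustrum, insula and piriform cortex gave 7 higher and 1 lower than the mean (median 0.74), but 2 higher and 3 lower than the hippocampus (median -0.39).

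At the other end, the 10 genes furthest above the mean included Isl1, Avp, Pmch, Chat, Oxt, Nkx2-1, Gbx1 and Calcr. These except Calcr are on the striatum, cholinergic or hypothalamus lists, and the cholinergic and hypothalamus lists were written after values were seen. Chat and Nkx2-1 are also on the interneuron lists. Ovol2, a zinc-finger factor, was among the 10 at 4.87, 4.67 and 5.28 CPM in the cortex and 0.982, 0.563 and 2.45 CPM in the hippocampus. These named genes were at most 30.5 CPM in any cortex library.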

How the data were processed

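Poly(A)-selected RNA of 12 wild-type libraries was analysed. Per the submitters' processing notes, the tools were bcl2fastq 2.17.1.14, STAR 2.5.1b and HTSeq 0.6.1p1, with mouse build mm9. The authors deposited unnormalised whole-number read counts, 1 table per library. The strand setting of their counting is not given in the sources used here, which leaves genes that overlap or lie antisense to another uncertain. The 5 summary lines per table were left out. They held 8.22% to 16.8% (no feature), 0.576% to 0.764% (ambiguous) and 11.6% to 13.5% (not unique). Of 37621 feature IDs 32897 matched a symbol in a GRCm38 gene table.

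Genes were filtered with filterByExpr and scaled with TMM. They were tested with the quasi-likelihood F test of edgeR 4.0.16 (R 4.3.3, 1 coefficient per region) and adjusted by Benjamini-Hochberg over 16729 genes. An SE is the absolute log2 over the square root of the F statistic. All 4 regions share 1 estimate of the spread, so regions outside a comparison also enter its SE and p. The code was tested on simulated data. DESeq2 1.42.0, limma 3.58.1 (voom), other filters and scalings, a replicate block and each left-out library were alternatives. CPM are TMM-scaled. The regions compared, the 38 lists (656 of 659 symbols matched, 3 through a synonym) and the rules were chosen with earlier results of these data known, and 3 further lists were added after values were seen, of which the one for monoamine neurons of midbrain and hindbrain had 1 of 5 tested members higher.

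The named genes were the 20 highest and 15 lowest by log2 from the nearest region, with at least 2 CPM and groups that did not overlap, the 10 per direction furthest from the mean, and of each list its first 4 members and up to 6 called members. Not all are printed, and some are not reported here. Adrb1, Chrnb3, Grin2a, Camk2n1, Rgs4, Arpp19, Stx1a and Hcrt were chosen after their values were seen. A gene was called at an adjusted p under 0.05.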

Additional observations from a re-analysis of the deposited data

How the results depend on the processing

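Counts below are of genes called at an adjusted p under 0.05. The genes lowest of the 4 regions moved with the method: 53 became 99 with DESeq2, 19 with each pair fitted on its own 6 libraries, and 27 to 182 as single libraries were left out (27 without cortex 3, 28, 34 and 29 without hippocampus 1, 2 and 3, 34 without cortex 1 or bulb 3, and 182 without cortex 2). The ranges that follow come from leaving out single libraries. At least 2-fold, the 17 lowest became 12 (without cortex 3 or hippocampus 1) to 63 (without cortex 2). The 289 highest genes ranged from 166 (without cortex 3; 187 without hippocampus 1) to 306. Against the mean, 2936 lower genes ranged from 1831 without cortex 3 to 3228, while DESeq2 gave 3244, library totals 3761, a replicate block 3870 and a mean without the hippocampus 4029. The 627 that were at least 2-fold lower ranged from 478 to 996 (without cortex 2) and became 1225 without the hippocampus in the mean and 156 when a log2 of 1 was tested for, which also left 640 of the 1238 higher. Against the hippocampus, 918 lower genes ranged from 587 (without cortex 3) to 1347 (without cortex 2).

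Without the 4 libraries over 1000 summed choroid plexus CPM (cerebellum 1 and 2, hippocampus 1 and 3), an alternative chosen after seeing the data, each of those regions had 1 library, assumed to vary like the others. It gave 1727 lower than the mean, 2679 lower than the cerebellum, 521 higher and 389 lower than the hippocampus, 77 highest and 14 lowest, and 68 and 11 at least 2-fold. With no test, a gap of at least 2-fold without overlap was seen for 251 and 52 genes. An arithmetic mean of the 3 regions gave 728 genes at least 2-fold higher and 1330 lower in place of 1323 and 875.

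The deviations of libraries with equal numbers were correlated above 0.1 in 17 of 18 pairs of libraries, among them all 9 with a cortex library (correlations 0.0611 to 0.574 for equal numbers and -0.427 to 0.144 for unequal ones), a hint from the data and not from the labels. A replicate block gave 1536 genes lower than the hippocampus and 130 lowest.

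With the cerebellum left out of the mean, log2 values changed sign for Bcl11b (-0.44), Emx2 (-0.21), Slit1 (-0.064), Fat2 (0.023) and Gabra6 (0.70), and with the bulb left out for Gad1 (0.079). The cause of these changes was not tested beyond what the settings themselves remove. Scaling by library totals moved the median of all genes to -0.09.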
